A study of Cicer arietinum with 8 samples.

Results

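Of the 34193 loci in the deposited tables of chickpea (Cicer arietinum, genotype ICC4958), 143 annotated loci had nearly the same expression value in roots and shoots under every condition sampled. They were chosen by 3 criteria: an annotated gene ID, at least 20 FPKM in all 8 libraries, and a range of log2(FPKM + 1) of at most 0.5 between the lowest and the highest of the 8 libraries. FPKM is the number of sequenced fragments scaled by exon length and by the library's mapped fragments. Of the 27248 annotated loci, 2938 reached 20 FPKM in all libraries, and the 143 genes were 4.87% of these. The same rule gave 342 genes when salt-stressed root was left out and 217 when desiccated shoot was left out. Because the same 8 libraries chose the genes, their flat values are described here and not tested. Genes are called stable below only in the sense of this rule.

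Genes with steady transcript levels are used as internal references when other transcripts are measured, most often by quantitative PCR. In plants the usual references come from housekeeping families, such as actin and tubulin of the cytoskeleton, elongation factor 1-alpha and initiation factor 4A of translation, ubiquitin and its conjugating enzymes of protein turnover, and glyceraldehyde-3-phosphate dehydrogenase of glycolysis. No such gene is steady in every tissue and treatment, so candidates are sought anew for each setting. FPKM is a relative level, so a gene can be flat here only relative to how the deposited libraries were scaled. The FPKM sums over all loci were not equal between the libraries, as given below. The tables pair the IDs with no gene names, and 0 of the 27571 annotated IDs matched the RefSeq gene table used here, so the 143 genes are given by ID, with no function, position or sequence.

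The seedlings were 10 days old and were kept for 5 h on folds of tissue paper (desiccation), in 150 mM NaCl (salinity), in water at 4 ± 1 °C (cold), or in water (control). Roots and shoots gave 1 library per organ and condition, that is 4 root and 4 shoot libraries of 1 genotype. With 1 library per group there is no replicate spread, so no p-value is given for any difference, and a difference between conditions cannot be told apart from a difference between libraries. The relative depth, estimated from the most frequent ratio between libraries at loci under 0.3 FPKM, where 1 fragment makes a visible step, was 1.21 to 1.31 in the other 7 libraries against 1 in control root. Salt-stressed root stood apart from the other libraries: over the 2938 loci its median deviation from each gene's own mean was -0.21 (log2), and 33.3% of these loci were lowest there. The organ labels could not be checked against markers by name; 431 of the 2938 loci (14.7%) had organ means at least 2-fold apart. In bulk tissue, fewer cells of a type and less RNA per cell cannot be told apart.

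The 143 genes lay mostly near the lower limit of expression that the rule allowed. Their mean over the 8 libraries was 23.0 to 949.8 FPKM with a median of 35.3 FPKM, against a median of 63.0 FPKM over all 2938 loci. There were 107 genes with a mean under 50 FPKM, 25 between 50 and 100 FPKM, 9 between 100 and 200 FPKM and 2 above 200 FPKM. They made up 9.85% of the 1086 loci with a mean under 50 FPKM, 2.50% of 1001 between 50 and 100 FPKM, 1.86% of 484 between 100 and 200 FPKM, and 0.545% of 367 above 200 FPKM. The minimum of 20 FPKM by itself limits how far a gene with a low mean can vary, which favours low genes in these shares. Counted over annotated loci by mean alone, with no minimum in single libraries, the shares with a range of at most 0.5 were 3.34% (135 of 4036), 1.67% (25 of 1495), 1.35% (9 of 666) and 0.415% (2 of 482) from the lowest to the highest bin. The share was thus lower at higher levels with or without the minimum. Loci without a gene ID, which the rule left out, met the same level and range in 7 of 546 cases (1.28%).

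The median range of the 143 genes was 0.42 (log2), against 1.21 over all 2938 loci. Their median coefficient of variation over the 8 libraries was 10.4%, against 28.9%. Within these limits 6 genes had a range of at most 0.25, 48 had a range above 0.25 and up to 0.4, and 89 had a range above 0.4, so most of them lay close to the threshold. A further 133 loci had a range above 0.5 and up to 0.6.

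**Figure D1:**
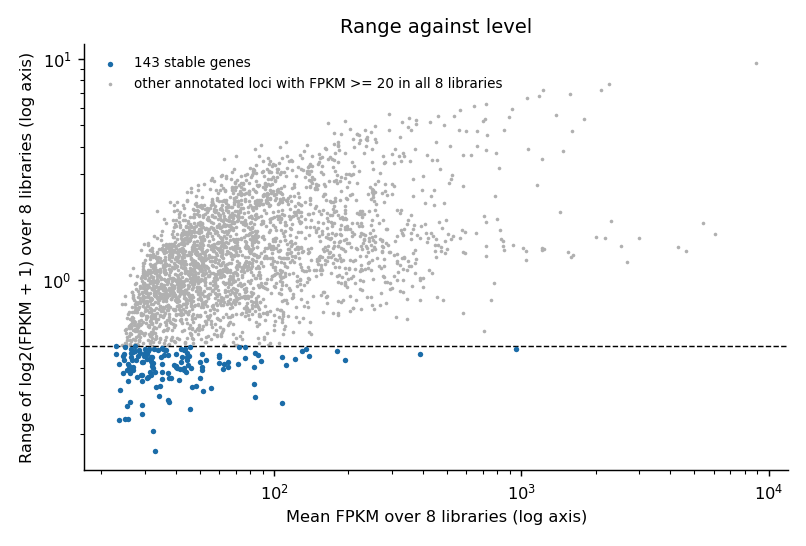
Each point is 1 annotated locus with at least 20 FPKM in all 8 libraries; the horizontal axis is its mean FPKM and the vertical axis the range of log2(FPKM + 1) over the 8 libraries, both on log axes. The 143 stable genes (blue) lie under the dashed limit of 0.5 by the rule, 107 of them at means under 50 FPKM and 2 above 200 FPKM.

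The flattest gene was Ca_01421. It had 34.4, 32.6 and 35.1 FPKM in desiccated, salt-stressed and cold root and 32.2 FPKM in control root, and 33.3, 31.8 and 31.1 FPKM in desiccated, salt-stressed and cold shoot and 34.6 FPKM in control shoot, a range of 0.17 (log2). Roots and shoots overlapped, and the value was highest in cold root and lowest in cold shoot. Its mean was 33.1 ± 1.44 FPKM (SD over the 8 libraries, which differ in condition), a coefficient of variation of 4.35%. Ca_06683 followed with 33.4, 31.0 and 33.1 FPKM in desiccated, salt-stressed and cold root and 31.3 FPKM in control root, and 34.2, 31.5 and 30.2 FPKM in desiccated, salt-stressed and cold shoot and 35.0 FPKM in control shoot. Its range was 0.21, all of it within shoot, since control shoot was highest and cold shoot lowest. The 4 root values lay between these and spanned 0.10.

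Ca_06033, one of the weakest of the 143 genes, had 23.7, 24.9 and 24.9 FPKM in desiccated, salt-stressed and cold root and 21.8 FPKM in control root, and 23.1, 21.9 and 25.8 FPKM in desiccated, salt-stressed and cold shoot and 22.3 FPKM in control shoot. Here control root was lowest and cold shoot highest, a range of 0.23. Ca_11327 had 24.4, 24.3 and 27.8 FPKM in desiccated, salt-stressed and cold root and 24.9 FPKM in control root, and 25.5, 25.8 and 24.5 FPKM in desiccated, salt-stressed and cold shoot and 28.8 FPKM in control shoot. Control shoot was its highest library and salt-stressed root its lowest, a range of 0.23. For Ca_12309 the values were 26.7, 22.6 and 23.2 FPKM in desiccated, salt-stressed and cold root and 25.8 FPKM in control root, and 26.8, 25.7 and 23.3 FPKM in desiccated, salt-stressed and cold shoot and 26.6 FPKM in control shoot. Salt-stressed root was again lowest, desiccated shoot was highest, and the range was 0.24. Ca_13974 stood at 28.7, 27.2 and 30.5 FPKM in desiccated, salt-stressed and cold root and 26.9 FPKM in control root, and 32.1, 28.6 and 30.4 FPKM in desiccated, salt-stressed and cold shoot and 29.3 FPKM in control shoot. It was highest in desiccated shoot and lowest in control root, a range of 0.25.

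The next 4 genes had ranges of 0.26 to 0.28. Ca_16237 had 42.1, 48.7 and 49.4 FPKM in desiccated, salt-stressed and cold root and 47.9 FPKM in control root, and 41.1, 48.1 and 43.7 FPKM in desiccated, salt-stressed and cold shoot and 46.0 FPKM in control shoot. Both desiccated libraries were its lowest values in their organ. The locus that carries the IDs Ca_03488 and Ca_03489 had 25.8, 27.6 and 25.02 FPKM in desiccated, salt-stressed and cold root and 24.8 FPKM in control root, and 22.7, 24.0 and 27.5 FPKM in desiccated, salt-stressed and cold shoot and 26.0 FPKM in control shoot. Reads of these 2 gene models were counted together, so a change of one against the other would not be seen. Ca_15252 had 31.7, 26.1 and 31.5 FPKM in desiccated, salt-stressed and cold root and 31.8 FPKM in control root, and 27.0, 27.4 and 31.0 FPKM in desiccated, salt-stressed and cold shoot and 27.6 FPKM in control shoot. Salt-stressed root was its only root value under 30 FPKM. Ca_04253, the only one of these 10 genes above 100 FPKM in every library, had 102, 104 and 108 FPKM in desiccated, salt-stressed and cold root and 110.1 FPKM in control root, and 100.4, 122 and 100.1 FPKM in desiccated, salt-stressed and cold shoot and 111 FPKM in control shoot. Salt-stressed shoot was its highest library, and the 4 root libraries spanned 0.10. In none of these 10 genes did all root values lie above or all below the shoot values.

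**Figure D2:**
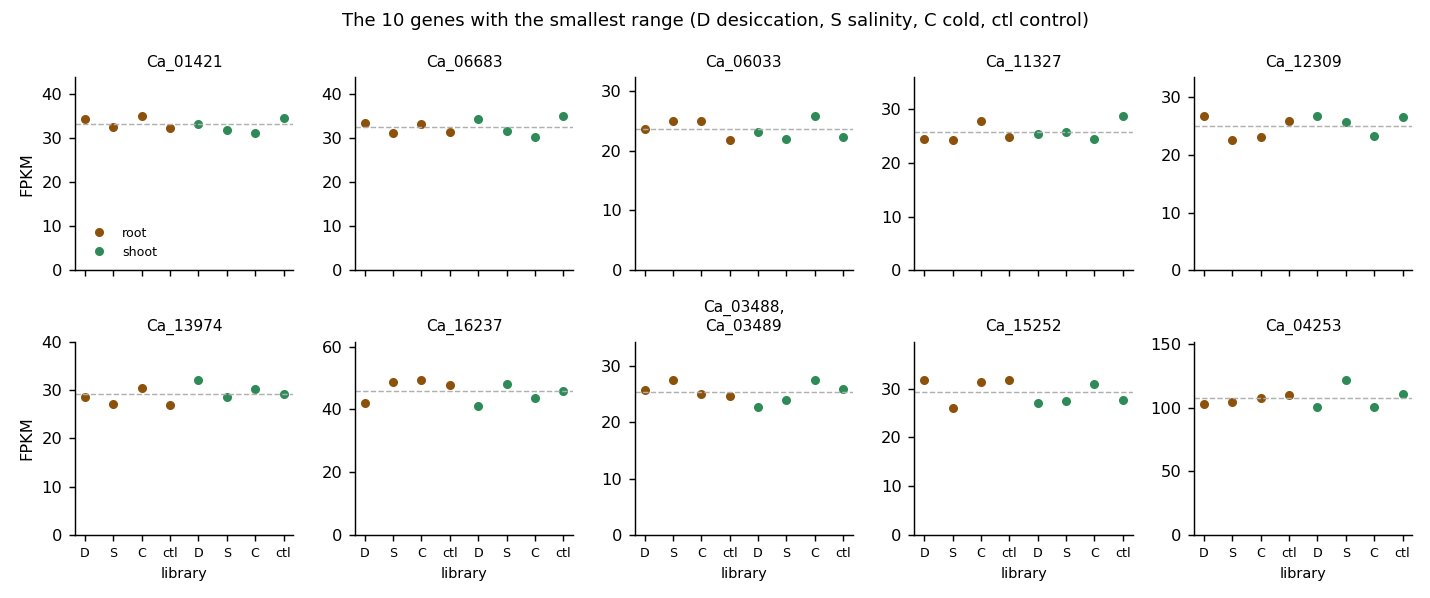
FPKM of the 10 genes with the smallest range, 1 panel per gene with its own vertical axis from 0; points are single libraries of root (brown) and shoot (green) in the order desiccation (D), salinity (S), cold (C) and control (ctl), and the dashed line is the mean of the 8 libraries. The ranges run from 0.17 (log2) for Ca_01421 to 0.28 for Ca_04253, and root and shoot points overlap in every panel.

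Strongly expressed genes were rare among the 143. Ca_17574 was far above the rest at 949.8 ± 111 FPKM (SD, n = 8 libraries of different conditions). It had 984, 1115 and 913 FPKM in desiccated, salt-stressed and cold root and 989.8 FPKM in control root, and 842, 796 and 1075 FPKM in desiccated, salt-stressed and cold shoot and 885 FPKM in control shoot. Salt-stressed libraries held both its extremes, the highest in root and the lowest in shoot, a range of 0.49. Ca_07984 came next at 389 ± 47.7 FPKM, with 401, 355 and 414 FPKM in desiccated, salt-stressed and cold root and 337 FPKM in control root, and 444, 459 and 370.3 FPKM in desiccated, salt-stressed and cold shoot and 334 FPKM in control shoot. In each organ every stressed value was above the control, and the range of 0.46 was that between salt-stressed and control shoot.

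Ca_11539 had 227, 167 and 206 FPKM in desiccated, salt-stressed and cold root and 194 FPKM in control root, and 168, 192 and 204 FPKM in desiccated, salt-stressed and cold shoot and 195 FPKM in control shoot. Its range of 0.43 lay between desiccated and salt-stressed root. Ca_19205 had 194, 166 and 201 FPKM in desiccated, salt-stressed and cold root and 185 FPKM in control root, and 185, 198 and 144 FPKM in desiccated, salt-stressed and cold shoot and 164 FPKM in control shoot, and cold shoot was its only value lower than 164 FPKM. Ca_08512 had 163, 119 and 145 FPKM in desiccated, salt-stressed and cold root and 145 FPKM in control root, and 139, 134 and 137 FPKM in desiccated, salt-stressed and cold shoot and 123 FPKM in control shoot. As in Ca_11539, desiccated root was highest and salt-stressed root lowest, while the shoot libraries spanned 0.17. These 5 genes used most of the allowed range, 0.43 to 0.49.

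The weakest of the 143 genes were Ca_17403, Ca_00192 and Ca_06033. Ca_17403 had 29.0, 22.4 and 26.3 FPKM in desiccated, salt-stressed and cold root and 23.6 FPKM in control root, and 20.6, 20.2 and 21.0 FPKM in desiccated, salt-stressed and cold shoot and 21.0 FPKM in control shoot. All 4 shoot values were under all 4 root values, so that this gene was flat within shoot (0.06) and a little higher in root. Ca_00192 had 24.7, 20.5 and 24.3 FPKM in desiccated, salt-stressed and cold root and 21.1 FPKM in control root, and 28.1, 23.1 and 22.3 FPKM in desiccated, salt-stressed and cold shoot and 20.1 FPKM in control shoot, and desiccation was highest in both organs. At the edge of the rule, Ca_11208, Ca_17403 and Ca_12219 were just inside, with ranges of 0.499 each. Ca_11208 had 23.6, 24.8 and 23.9 FPKM in desiccated, salt-stressed and cold root and 23.7 FPKM in control root, and 31.4, 33.8 and 31.6 FPKM in desiccated, salt-stressed and cold shoot and 27.4 FPKM in control shoot. Its root values spanned only 0.07, and all shoot values were above them. Ca_12219 had 24.1, 27.7 and 25.1 FPKM in desiccated, salt-stressed and cold root and 21.4 FPKM in control root, and 26.4, 30.6 and 21.6 FPKM in desiccated, salt-stressed and cold shoot and 23.1 FPKM in control shoot. Just outside were Ca_00878 (0.5002), Ca_09896 (0.50) and Ca_16845 (0.51). Ca_00878 had 30.4, 35.1 and 33.0 FPKM in desiccated, salt-stressed and cold root and 30.5 FPKM in control root, and 28.7, 40.3 and 30.6 FPKM in desiccated, salt-stressed and cold shoot and 28.2 FPKM in control shoot and spanned 0.20 in root and 0.50 in shoot.

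Between organs the 143 genes differed little by construction. The difference of the organ means, root minus shoot, ran from -0.35 to 0.31 (log2) with a median of 0.04, and it was under 0.1 in either direction for 75 genes. The root mean was higher for 81 genes and the shoot mean for 62, beside 62.0% with a higher root mean among all 2938 loci. In 7 genes every root library was above every shoot library, and in 5 genes every shoot library was above every root library. Among all 2938 loci these shares were 14.6% and 7.52%. In the other 131 genes the organs overlapped. The range within an organ was larger in root for 86 genes and larger in shoot for 57, beside 64.8% larger in root among the 2938 loci. The median range was 0.33 within root and 0.27 within shoot for the 143 genes, and 0.80 and 0.60 for the 2938 loci.

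Of the 143 loci, 9 (6.29%) carried more than 1 gene ID, against 153 (5.21%) of the 2938. The locus of Ca_16026 with Ca_16027 and Ca_16028 joined 3 gene models. Ca_15444 appeared on another locus as well, so its reads may be split. These 10 values are uncertain as levels of single genes.

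No single library set the extremes of the 143 genes. Control root was the highest library for 24 genes, cold root for 23, desiccated root for 22, salt-stressed shoot for 20, desiccated shoot and control shoot for 17 each, salt-stressed root for 15 and cold shoot for 5. Salt-stressed root was the lowest library for 35 genes, cold shoot for 27, control root for 21, desiccated shoot for 18, control shoot for 15, desiccated root and salt-stressed shoot for 10 each and cold root for 7. As shares, desiccated, salt-stressed and cold root were highest for 15.4%, 10.5% and 16.1% of the 143 genes and control root for 16.8%, against 20.7%, 13.6%, 12.4% and 16.2% of the 2938 loci in this order. Desiccated, salt-stressed and cold shoot were highest for 11.9%, 14% and 3.5% of the 143 genes and control shoot for 11.9%, against 11.7%, 6.09%, 11% and 8.27% of the 2938 loci. Desiccated, salt-stressed and cold root were lowest for 6.99%, 24.5% and 4.9% of the 143 genes and control root for 14.7%, against 3.34%, 33.3%, 3.98% and 7.76% of the 2938 loci. Desiccated, salt-stressed and cold shoot were lowest for 12.6%, 6.99% and 18.9% of the 143 genes and control shoot for 10.5%, against 15.6%, 6.09%, 10% and 20% of the 2938 loci. These shares come from the libraries that chose the genes and are not tested. The median shift of the 143 genes from their own means was 0.05 (log2) in desiccated root, -0.04 in salt-stressed root, 0.03 in cold root and 0.02 in control root. In shoot it was -0.02 under desiccation, 0.00 under salinity, -0.04 under cold and -0.02 in the control. Over the 2938 loci the same medians were 0.21, -0.21, 0.12 and 0.10 in these root libraries and -0.08, -0.08, -0.07 and -0.10 in these shoot libraries. The spread of the 8 medians was thus 0.09 for the 143 genes, against 0.42 for the 2938 loci.

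**Figure D3:**
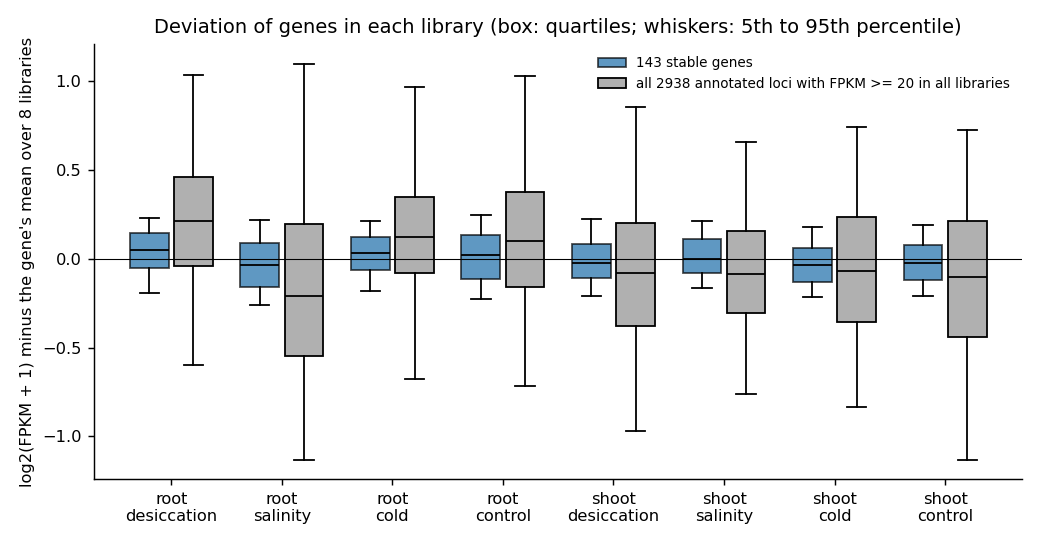
Deviation of each gene's log2(FPKM + 1) from its own mean over the 8 libraries, by library, for the 143 stable genes (blue) and for all 2938 annotated loci with at least 20 FPKM in all libraries (grey); boxes are quartiles with the median, and whiskers run from the 5th to the 95th percentile. The blue medians lie between -0.04 and 0.05, and the grey medians between -0.21 in salt-stressed root and 0.21 in desiccated root.

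Against the control of the same organ the 143 genes lay on both sides, and the rule used these libraries, so nothing is read from the counts. In desiccated root, 83 genes were higher and 60 lower, with a median of 0.04 (log2), a lowest difference of -0.45 (Ca_13283) and a highest of 0.38 (Ca_13134), where 61.9% of the 2938 loci were higher and their median was 0.12. In salt-stressed root, 59 genes were higher and 84 lower, with a median of -0.04 (log2), a lowest difference of -0.47 (Ca_19957) and a highest of 0.47 (Ca_11144 and Ca_11145), where 32.1% of the 2938 loci were higher and their median was -0.32. In cold root, 77 genes were higher and 66 lower, with a median of 0.01 (log2), a lowest difference of -0.42 (Ca_01042) and a highest of 0.45 (Ca_19200), where 52.3% of the 2938 loci were higher and their median was 0.02. In desiccated shoot, 75 genes were higher and 68 lower, with a median of 0.02 (log2), a lowest difference of -0.44 (Ca_12608) and a highest of 0.48 (Ca_05115), where 53.3% of the 2938 loci were higher and their median was 0.04. In salt-stressed shoot, 77 genes were higher and 66 lower, with a median of 0.01 (log2), a lowest difference of -0.43 (Ca_04271 and Ca_04272) and a highest of 0.46 (Ca_07984), where 53.5% of the 2938 loci were higher and their median was 0.04. In cold shoot, 60 genes were higher and 83 lower, with a median of -0.02 (log2), a lowest difference of -0.42 (Ca_03758) and a highest of 0.45 (Ca_01042), where 60% of the 2938 loci were higher and their median was 0.05. The stress values of an organ share its control library. The rule caps every one of these differences at 0.5.

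Whether the flatness holds in values that did not choose the genes was examined by applying the rule to 7 libraries and reading the genes it chose in the 8th. The measure was whether that library lay within 0.25 (log2) of the gene's mean in the other 7. In desiccated root 129 of 174 chosen genes (74.1%) did so, against 37.3% of all annotated loci with at least 20 FPKM in the other 7. In salt-stressed root the share was 123 of 342 (36.0%), against 24.9%. In cold root it was 130 of 181 (71.8%), against 46.5%, and in control root 125 of 196 (63.8%), against 39.7%. Desiccated shoot had 133 of 217 (61.3%), against 37.0%. Salt-stressed shoot had 133 of 165 (80.6%), against 45.1%, cold shoot 140 of 169 (82.8%), against 38.2%, and control shoot 132 of 179 (73.7%), against 34.2%. The chosen genes were above the background in all 8 libraries, by the least in salt-stressed root. This background was not matched for level, and weaker loci varied less. For annotated loci with at least 20 FPKM in all 8 libraries, the median range was 0.90 (log2) at means of 20 to 50 FPKM. It was 1.34 at 50 to 100 FPKM, 1.61 at 100 to 200 FPKM and 1.62 above 200 FPKM. The minimum itself limits the range most at low means. Without a minimum in single libraries, the medians were 1.54, 1.89, 2.16 and 2.27 from the lowest to the highest bin. How much of the gap goes with level was not tested. The 8 choices share most of their libraries, so they are not independent of each other.

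**Figure D4:**
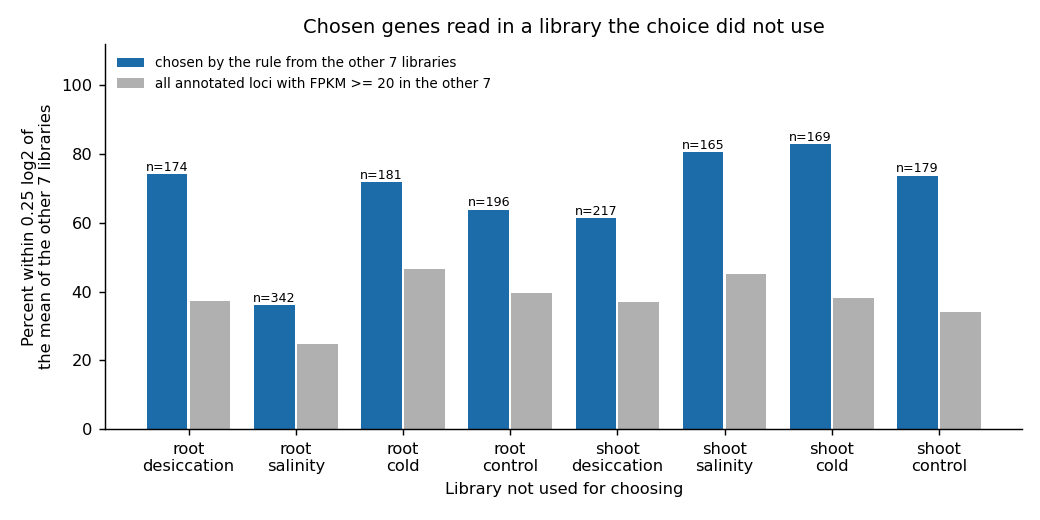
Percent of genes within 0.25 (log2) of their mean in the other 7 libraries, read in the library named under each pair of bars, which the choice did not use; blue bars are the genes chosen by the rule from the other 7 (n above the bar) and grey bars all annotated loci with at least 20 FPKM in those 7. Blue is above grey in all 8 libraries, with 36.0% against 24.9% in salt-stressed root and 82.8% against 38.2% in cold shoot. The grey loci were not matched to the blue for level.

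Salt-stressed root was the library in which genes flat elsewhere departed most. The rule applied without it gave 342 genes, of which 147 (43.0%) kept a range of at most 0.5 once it was added, and their median deviation there was -0.30 (log2), against -0.30 over all 3175 loci read. Of these 342 genes, 16 (4.68%) were at least 2-fold off, 15 lower and 1 higher, against 20.7% of the 3175. The genes named from this set were chosen after their values were seen. Ca_03557 had 36.0, 9.39 and 36.0 FPKM in desiccated, salt-stressed and cold root and 31.1 FPKM in control root, and 39.1, 31.1 and 39.8 FPKM in desiccated, salt-stressed and cold shoot and 38.9 FPKM in control shoot. Ca_08555 had 85.6, 21.4 and 74.5 FPKM in desiccated, salt-stressed and cold root and 61.7 FPKM in control root, and 83.1, 62.7 and 75.9 FPKM in desiccated, salt-stressed and cold shoot and 76.9 FPKM in control shoot. Their deviations in salt-stressed root were -1.83 and -1.74, while their other 7 libraries spanned 0.35 and 0.47. A strongly expressed gene of this kind was Ca_21355, with 793, 269.9 and 650.2 FPKM in desiccated, salt-stressed and cold root and 616 FPKM in control root, and 637, 755 and 837 FPKM in desiccated, salt-stressed and cold shoot and 679.6 FPKM in control shoot. The one gene that was higher, Ca_15101, had 44.3, 94.0 and 43.0 FPKM in desiccated, salt-stressed and cold root and 47.2 FPKM in control root, and 41.8, 46.0 and 49.3 FPKM in desiccated, salt-stressed and cold shoot and 49.7 FPKM in control shoot. In the other 7 libraries taken in turn, only Ca_08536 was 2-fold off. It had 40.9, 31.3 and 28.8 FPKM in desiccated, salt-stressed and cold root and 208 FPKM in control root, and 39.9, 33.1 and 37.7 FPKM in desiccated, salt-stressed and cold shoot and 38.2 FPKM in control shoot, so its high value was that of control root alone. Of all loci read, 10.2% were 2-fold off in desiccated root, 9.9% in cold root and 11% in control root, and 13.4%, 6.79% and 8.27% in desiccated, salt-stressed and cold shoot and 13.3% in control shoot. Each of these departures rests on 1 library, and its part from the plants and from the library cannot be told apart.

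The organs share no library, so genes chosen in one organ can be read in the other. By level and range within root alone, 1009 of 4331 annotated loci (23.3%) were flat. Of these 1009, 476 (47.2%) also had a range of at most 0.5 within shoot, against 34.3% of the 4331. By level and range within shoot alone, 1875 of 4533 loci (41.4%) were flat. Of these 1875, 530 (28.3%) had a range of at most 0.5 within root, against 22.1% of the 4533. In this paragraph the organ read was judged by range alone, with no minimum FPKM, and log2(FPKM + 1) varies little at values near 0. With at least 20 FPKM required in both organs, 363 loci kept to the range limit within each. Split by level, the chosen genes were above the background in each class. Of those flat in root, 49.9% of 698 genes under 50 FPKM were flat in shoot, against 40.6%, and 41.2% of 311 genes at 50 FPKM and over, against 29.6%. Of those flat in shoot, 34.0% of 1089 genes under 50 FPKM were flat in root, against 28.4%, and 20.4% of 786 genes at 50 FPKM and over, against 16.2%. In all, 144 of the 1009 genes flat in root (14.3%) and 547 of the 1875 genes flat in shoot (29.2%) had organ means at least 2-fold apart, against 29.5% and 33.6% of all loci read.

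There were 363 loci with at least 20 FPKM everywhere and a range of at most 0.5 within root and within shoot, whatever the difference between the organs. The 143 stable genes were 39.4% of them. Another 200 exceeded the limit over all 8 libraries with organ means less than 2-fold apart, and 20 had organ means at least 2-fold apart, 10 higher in root and 10 higher in shoot. These 20 were 0.681% of the 2938 loci. Ca_09034 had 99.3, 98.3 and 115 FPKM in desiccated, salt-stressed and cold root and 95.7 FPKM in control root, and 22.5, 25.4 and 28.7 FPKM in desiccated, salt-stressed and cold shoot and 26.7 FPKM in control shoot, a root minus shoot difference of 1.94 (log2). Ca_07012 had 104, 135 and 105 FPKM in desiccated, salt-stressed and cold root and 99.1 FPKM in control root, and 38.2, 30.5 and 39.8 FPKM in desiccated, salt-stressed and cold shoot and 33.9 FPKM in control shoot, a difference of 1.61. The third, Ca_04880, had 296, 245 and 311 FPKM in desiccated, salt-stressed and cold root and 247 FPKM in control root, and 101, 114 and 82.6 FPKM in desiccated, salt-stressed and cold shoot and 86.7 FPKM in control shoot, a difference of 1.51. Every root value of these 3 genes was above every shoot value. On the other side, Ca_15683 had 35.7, 37.8 and 33.2 FPKM in desiccated, salt-stressed and cold root and 33.8 FPKM in control root, and 510.3, 437 and 459 FPKM in desiccated, salt-stressed and cold shoot and 443 FPKM in control shoot, a difference of -3.68. The locus of Ca_01702 and Ca_01703 had 22.6, 27.6 and 25.9 FPKM in desiccated, salt-stressed and cold root and 25.4 FPKM in control root, and 219, 309 and 294 FPKM in desiccated, salt-stressed and cold shoot and 292 FPKM in control shoot, a difference of -3.39. That of Ca_04628 and Ca_04629 had 22.3, 23.2 and 22.2 FPKM in desiccated, salt-stressed and cold root and 22.3 FPKM in control root, and 137, 131 and 127 FPKM in desiccated, salt-stressed and cold shoot and 114 FPKM in control shoot, a difference of -2.44 with a root range of 0.06. All shoot values of these 3 loci were above all root values.

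Which genes are flat depended on what the libraries were scaled to. Rescaling by median ratios over annotated loci gave 144 genes under the same rule, 127 of them among the 143 (88.8% of the 143 and 88.2% of the 144). Its factors were 0.98 (control root) to 1.04 (desiccated root). The deposited values were thus already nearly even by this measure, and a large overlap was bound to result. Quantile normalization, taken over all loci with or without a gene ID, gave 150, with 111 shared (77.6% of the 143 and 74.0% of the 150). The equal sums also changed the units, and with them the loci that reached the minimum of 20. An equal sum over annotated loci left 4562 eligible loci in place of 2938 and gave 216 genes, with 93 shared (65.0% of the 143 and 43.1% of the 216). That is 4.73% of the eligible loci, against 4.87% with FPKM as deposited, and with the minimum taken on FPKM as deposited 136 of the 2938 loci were flat. An equal sum over all loci left 895 eligible loci and gave 3 genes, and 0 of the 143, while 4 of the 2938 loci were flat with the minimum taken on FPKM as deposited. The sum of FPKM over all loci was 1194209 to 1467263 in root and 2457120 to 3343299 in shoot, while over annotated loci it was 621289 to 695334 in root and 652296 to 710943 in shoot. Loci without a gene ID held 48.0% to 54.1% of the sum in root and 73.2% to 78.7% in shoot, and the single highest locus, which has no gene ID, held 14.5% in desiccated shoot. On the equal sum over all loci the 143 genes were shifted together, with median shifts of 0.41 to 0.64 (log2) in root and -0.75 to -0.31 in shoot, and a median range of 1.47. Of the 143 genes, 79 kept a range of at most 0.5 under FPKM, median ratios, quantile normalization and the equal sum over annotated loci.

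**Figure D5:**
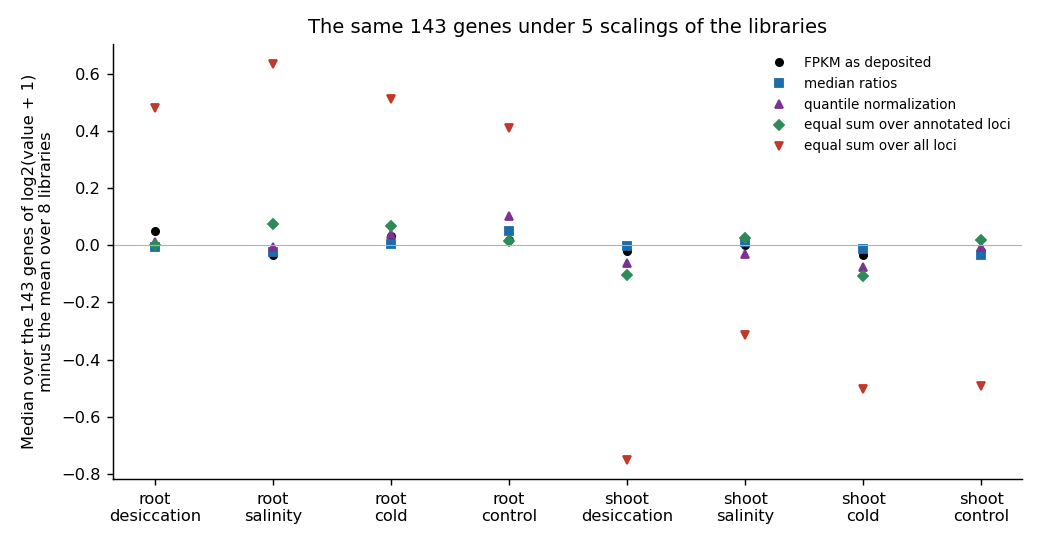
Median over the 143 genes of log2(value + 1) minus the gene's mean over the 8 libraries, by library, under 5 scalings of the libraries (marker and colour). With FPKM as deposited the medians lie between -0.04 and 0.05; with an equal sum over all loci they lie between 0.41 and 0.64 in the root libraries and between -0.75 and -0.31 in the shoot libraries.

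The 10 flattest genes kept their ranges low under 3 of the scalings, of which the median ratios changed the values little. Ca_01421 had a range of 0.12 with median ratios, 0.19 with quantile normalization and 0.28 with an equal sum over annotated loci, but 1.37 with an equal sum over all loci. Over the 10 genes the ranges were 0.12 to 0.31, 0.19 to 0.38, 0.22 to 0.46 and 1.14 to 1.65 in this order of scalings. Of the 5 most strongly expressed genes, 4 left the limit under quantile normalization, with ranges of 1.92 for Ca_17574, 0.91 for Ca_07984, 0.57 for Ca_11539 and 0.71 for Ca_19205, and Ca_08512 stayed at 0.45. With an equal sum over annotated loci Ca_17574 (0.60) and Ca_19205 (0.59) were over the limit, and with median ratios all 5 were within it.

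The 3 genes that were flat on the equal sum over all loci, named after their values were seen, were higher in shoot on the FPKM scale. Ca_10878 had 58.1, 41.7 and 51.8 FPKM in desiccated, salt-stressed and cold root and 54.7 FPKM in control root, and 140.0, 98.3 and 96.0 FPKM in desiccated, salt-stressed and cold shoot and 114 FPKM in control shoot. Ca_18790 had 73.7, 57.4 and 69.3 FPKM in desiccated, salt-stressed and cold root and 77.9 FPKM in control root, and 129, 131 and 123 FPKM in desiccated, salt-stressed and cold shoot and 121 FPKM in control shoot. Ca_20581 had 36.0, 27.6 and 30.3 FPKM in desiccated, salt-stressed and cold root and 31.1 FPKM in control root, and 74.3, 69.5 and 71.6 FPKM in desiccated, salt-stressed and cold shoot and 68.1 FPKM in control shoot. In each of them every shoot value was above every root value. Their root minus shoot differences on the FPKM scale were -1.10, -0.85 and -1.16 (log2).

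The rule itself makes the joint level of the 143 genes nearly even over the 8 libraries, and it is given as a description. Their geometric mean was 42.7, 40.6 and 42.3 FPKM in desiccated, salt-stressed and cold root and 41.9 FPKM in control root, and 41.3, 41.8 and 40.5 FPKM in desiccated, salt-stressed and cold shoot and 41.1 FPKM in control shoot, a range of 0.08 (log2). The geometric mean of the 10 flattest genes was 33.5, 32.7 and 34.5 FPKM in the stressed root libraries and 33.1 FPKM in control root, and 32.8, 33.1 and 33.1 FPKM in the stressed shoot libraries and 34.3 FPKM in control shoot, also a range of 0.08. On the equal sum over all loci the 8 median shifts of the 143 genes spanned 1.38 (log2).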

How the data were processed

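Messenger RNA of 8 chickpea libraries was sequenced on an Illumina platform. Per the series' design text, NGS QC Toolkit was used by the authors for read filtering, TopHat for mapping to an annotated chickpea genome and Cufflinks for FPKM. Their versions, the build and the annotation are not given in the sources at hand. The deposited FPKM values, 1 file per library, were used as they stand. FPKM depends on the composition of each library, so all levels are relative.

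The titles of the samples gave the groups. The rule (annotated ID, at least 20 FPKM in all 8 libraries, range of log2(FPKM + 1) at most 0.5) was applied to all 34193 loci with Python 3.11.15, numpy 2.4.6 and pandas 2.3.3. The genes and comparisons were chosen with earlier results of these data known. With 1 library per group no test was run. Values not used for choosing were read by leaving out 1 library or 1 organ. Alternatives were pseudocounts of 0.1 and 5, minima of 10 and 50 FPKM or none, ranges of 0.4 and 0.6, 4 other scalings, and 7 libraries. Genes listed for naming were the 10 with the smallest range, the 5 with the highest mean and the 3 with the lowest mean. Also listed were the 3 just inside and 3 just outside the limit, and 3 in each direction among loci flat within each organ. Other genes were named outside this list, from their values. They include the extremes against the control, loci with several or shared IDs, and genes that departed in a library not used for choosing. Total read numbers and gene lengths are not used here, so the counting error of a single gene could not be given. The rule and the depth estimate were run on simulated data with known answers. The genes planted for the rule lay clearly inside or clearly outside its limit. The other steps were not run on simulated data. Classical reference families could not be looked up, because no ID matched a gene name. Figures were made with matplotlib 3.10.9.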

Additional observations from a re-analysis of the deposited data

How the results depend on the processing

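The division by the geometric mean of the 143 genes and the shares by mean level without a minimum were chosen after seeing the data, as was the minimum taken on FPKM as deposited under the 4 scalings. The division moved no count of loci at least 2-fold from the control by over 1.5 times, and its factors span 0.08 (log2) by the choice of the genes. The number of stable genes, 143, became 256 with a minimum of 10 FPKM, 27 with a minimum of 50 FPKM, 1800 with no minimum, 54 with a range of 0.4, 276 with a range of 0.6, 3 (of 895 eligible loci) with an equal sum over all loci and 216 (of 4562) with an equal sum over annotated loci; the equal sums also shift which loci reach the minimum, and with the minimum taken on FPKM as deposited the numbers were 4 and 136 of 2938, and 145 and 147 with median ratios and quantiles. It stayed within 1.5 times with pseudocounts of 0.1 (134) and 5 (210), median ratios (144) and quantile normalization (150). With no minimum, the 19415 annotated loci above 0 FPKM in any library were eligible, and log2(FPKM + 1) varies little at values near 0. Leaving out 1 library, which can only add genes, gave 165 to 342, the highest without salt-stressed root and 217 without desiccated shoot. The share of eligible loci, 4.87%, was 7.15% with a pseudocount of 5, 3.10% with a minimum of 50 FPKM, 9.27% with none, 1.84% and 9.39% with ranges of 0.4 and 0.6, 0.335% with an equal sum over all loci, and 5.58% to 10.8% with 1 library left out.

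For genes flat in root, the share also flat in shoot, 47.2%, was 57.8% with a pseudocount of 5, 39.2% with a minimum of 50 FPKM, 35.5% and 60.2% with ranges of 0.4 and 0.6, and 34.1% with an equal sum over all loci. The reverse share, 28.3%, was 26.0% and 38.2% with pseudocounts of 0.1 and 5, 31.0% and 18.9% with minima of 10 and 50 FPKM, 18.5% and 38.9% with ranges of 0.4 and 0.6, and 32.3% with an equal sum over annotated loci. For both shares the organ read was judged by range alone, with no minimum FPKM. Both shares stayed above those of all loci read in each of these alternatives. Of 363 loci flat within organs, 20 were 2-fold apart between them, out of 2938 eligible loci. With minima of 10 and 50 FPKM this became 67 of 787 and 1 of 67, out of 5930 and 870 eligible loci. With ranges of 0.4 and 0.6 it was 10 of 176 and 43 of 632. An equal sum over all loci gave 39 of 63 (895 eligible loci). An equal sum over annotated loci gave 47 of 642 (4562 eligible loci). The spread of the 143 genes' median shift, 0.0858, was 0.178 with quantile normalization, 1.38 with an equal sum over all loci and 0.181 with an equal sum over annotated loci. The mean share within 0.25 in a library not used was 68.0%, against 37.9% of all loci read, which were not matched for level. With median ratios, quantile normalization and an equal sum over annotated loci it was 66.8%, 68.1% and 67.1%, against 38.3%, 37.0% and 37.7%. On the equal sum over all loci it was 60.0%, against 17.4%. There it rests on 3 to 13 genes, and the shares in single libraries ran from 15.4% to 100%. Fewer genes pass under stricter limits by construction, and the cause of the other shifts was not tested. No paired analysis was possible because no result comes from a test: the 4 conditions could pair root with shoot, but the same libraries chose the genes.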
